A study of Arabidopsis thaliana with 18 samples.

Results

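In Arabidopsis thaliana seedlings, 38 of 22746 probe sets gave a signal that rose when wild-type plants grew without inorganic phosphate (Pi) and rose again within 4 h of Pi being given back. They were chosen from the means of the 3 log2 signals in each group by 4 conditions. In WT the mean without Pi was at least 1 above complete medium, and the mean after resupply at least 1 above that without Pi. In complete medium the spx1,spx2 mean was less than 2 above WT, and after resupply the genotypes differed by less than 1. On the log2 scale a difference of 1 is a fold of 2. Both WT steps were met by 90 probe sets. Of these, 41 were left out because the mutant in complete medium was 2 or more above WT, and 13 because the resupplied genotypes differed by 1 or more, with 3 failing both. The genes AT4G14090, UF3GT, DFR, UGT78D2 and AT5MAT of anthocyanin synthesis were set aside, of which UF3GT alone met all 4 conditions. Of the 38 members, 19 carry a single gene name and are 19 different genes, and 19 are not named here.

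The study put 2 genotypes on 3 media, with 3 arrays in each of 6 groups: wild-type Col-0 (WT) and the spx1,spx2 double mutant, which carries mutations in both SPX1 and SPX2. All samples were whole seedlings with a labelled age of 7 days. They grew on complete Johnson solid medium, on Johnson medium without Pi, or without Pi and then on complete medium for 4 h. No group was moved onto fresh medium without Pi, so the transfer itself and the return of Pi cannot be told apart. Transcripts of SPX1 and SPX2 have no named probe set in the table used here, so their loss was not checked. RNA came from whole seedlings, in which fewer cells of a type and less RNA per cell cannot be told apart.

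Plants short of Pi switch on genes for Pi uptake, recycling and membrane lipid exchange, largely through the transcription factor PHR1 and its relatives. SPX-domain proteins hold PHR1 back when Pi is ample, and many PHR1 targets fall soon after Pi returns. Anthocyanins, whose synthesis branches from the flavonoid pathway, also build up in starved seedlings. By the rule that chose them, the 38 members went the other way at resupply from the genes that fall when Pi returns.

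The values are log2 signals, normalized across arrays by the RMA method. In WT the members' group means ran from 3.75 to 9.25 in complete medium (median 5.77), from 4.94 to 10.96 without Pi (median 7.25) and from 5.96 to 12.42 after resupply (median 8.50). The median starvation step was 1.32 and the median resupply step 1.37, against -0.11 and -0.05 over all probe sets. These WT differences chose the members and carry no test. The whole rise from complete medium to resupply ran from 2.12 to 4.96, or from 4.35-fold to 31.2-fold. The 2 medians were alike, with both steps held to at least 1 by the rule. The starvation step was larger in 20 members and the resupply step larger in 18. Within single members the steps could differ, with 3.45 and 1.51 in 250083_at and 1.09 and 2.50 in AT5G04120. In each of the 38 members the 3 WT arrays of each medium kept apart from those of the next, against 4.22% of all probe sets, and the rule used these groups. In 4 members the lowest group mean lay under 4.397, a signal below the lower quartile on each of the 18 arrays, where RMA compresses differences: AT2G41380, PRX52, UGT73C1 and the unnamed 260394_at.

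**Figure D1:**
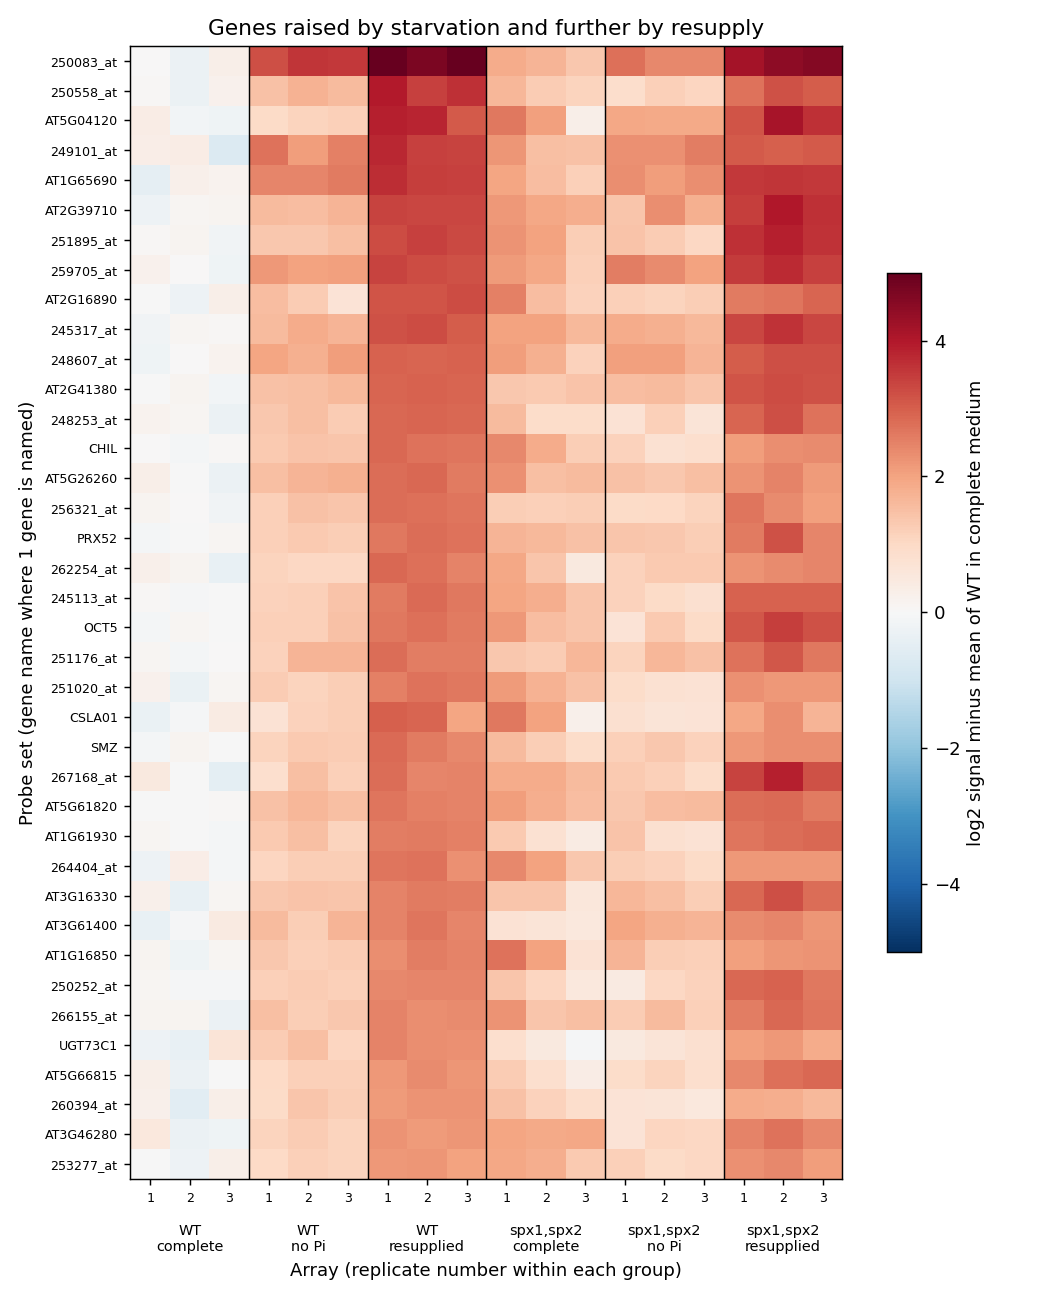
Each row is 1 of the 38 probe sets and each column 1 of the 18 arrays, and the colour is the log2 signal minus the mean of WT in complete medium. WT darkens in 2 steps from complete medium to no Pi to resupply, while the mutant is already raised in complete medium, by a median of 1.67, and darkens at resupply.

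Within the mutant the profile had another shape. In complete medium all 38 members were above WT, by 0.42 to 1.97 (median 1.67), and 33 were higher by at least 1. The condition on this difference capped it at 2, so its size is a description. Before the mutant conditions were applied, 82 of the 90 probe sets with both WT steps, or 91.1%, were at least 1 higher in the mutant in complete medium, against 2.74% of all probe sets. Those 90 were themselves chosen for a low mean in WT on complete medium. In 21 of the 38 members the mutant in complete medium was above WT without Pi, and in 26 it was above the mutant without Pi. Over all probe sets the mutant without Pi was above the mutant in complete medium in 46%. The mutant resupplied group was the highest of the 3 mutant groups for all 38. The rule tied that group to resupplied WT and capped the mutant in complete medium. This order is therefore partly fixed by the choice of members, and nothing is read from it.

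The 3 mutant arrays from complete medium did not agree closely on these genes. Replicate 1 was the highest of the 3 in 33 of the 38 members and replicate 3 the lowest in 31. The members' median signal above WT in complete medium was 1.96 in replicate 1, 1.54 in replicate 2 and 1.22 in replicate 3. The median range over the 3 arrays was 0.75, against 0.31 over all probe sets, and the largest was 2.40, in CSLA01. In the other 5 groups the members' median range was between 0.19 and 0.51.

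**Figure D2:**
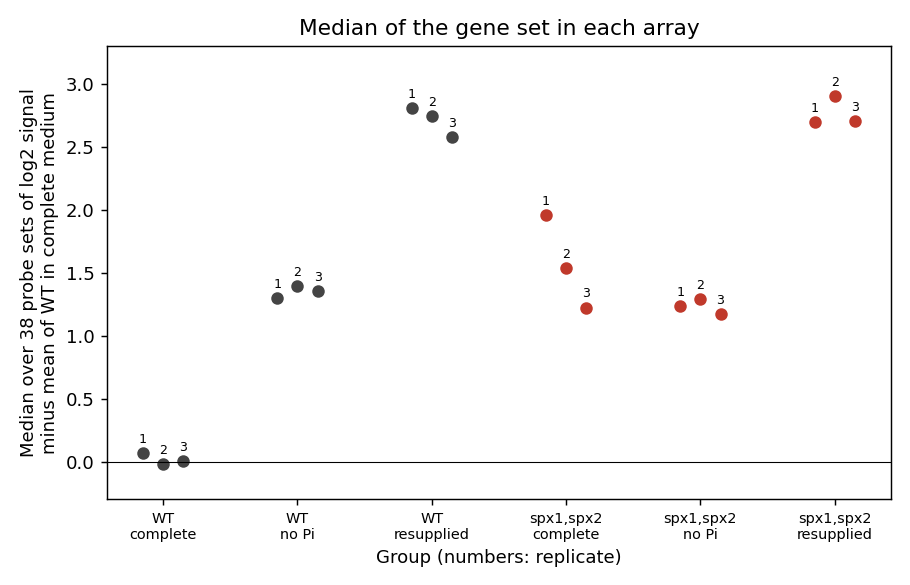
Each point is 1 array, placed by the median over the 38 probe sets of its log2 signal minus the mean of WT in complete medium, with the replicate number above it. The 3 mutant arrays from complete medium spread from 1.22 to 1.96, while those without Pi lie between 1.18 and 1.29 and those after resupply between 2.69 and 2.90.

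The mutant arrays without Pi entered none of the conditions, so their levels are the free measurement. Their group means of the members ran from 4.37 to 11.01 (median 7.24), close to the median of 7.25 in WT without Pi. The genotype difference without Pi was tested with limma over all 22746 probe sets, with Benjamini-Hochberg adjustment at 0.05. It passed as lower in the mutant for 1 member, against 0.492% of all probe sets, and as higher for none, against 0.339%. At an unadjusted p under 0.05 9 members, or 23.7%, were lower and 1 was higher, against 7.61% and 6.26% of all probe sets. The member that passed, the unnamed probe set 250083_at, read 9.86, 10.21 and 10.15 in WT without Pi and 9.38, 9.03 and 9.02 in the mutant, without overlap. The difference was -0.93 ± 0.17 (SE, n = 3 arrays per group, limma adjusted p = 0.0129). It lost its call without WT replicate 2, mutant replicate 2 or mutant replicate 3 of the no-Pi groups, which left no member called. It also had the largest starvation step in WT, 3.45.

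Over the 38 members the genotype difference without Pi had a median of -0.08, against -0.01 over all probe sets. It was below 0 in 27 members and above 0 in 11, and above 0 in 48.3% of all probe sets. In 12 members every mutant array lay below every WT array, and in 2 every one lay above. Over all probe sets such gaps occurred in 11.7% and 10.2%. WT without Pi was itself used to choose the members, once as a high value and once as a low one. With limma's array weights 5 members passed as lower, against 1.72% of all probe sets, among them CHIL (-0.52, adjusted p = 0.0429) and UGT73C1 (-0.58, adjusted p = 0.0445).

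Starvation in the mutant, that is the mutant without Pi against the mutant in complete medium, raised 5 members and lowered 11, and 22 did not pass. Among all probe sets 17.7% rose and 26.3% fell, so the members were raised and lowered in shares (13.2% and 28.9%) near those of the array as a whole. All 38 had risen by at least 1 in WT, by the choice of members. The median change in the mutant was -0.24, with 26 members below 0 and 12 above, and 1 rose by at least 1. Over all probe sets the median change was -0.03, and 46% were above 0. In 12 members every starved mutant array lay below every mutant array from complete medium, and in 4 above, against 28.6% and 20.3% of all probe sets. The mutant in complete medium was bounded only from above by the rule, and no bound applied without Pi. Leaving out replicate 1 of the mutant in complete medium left 7 lowered, and leaving out its replicate 3 left 3 raised and 14 lowered. Without replicate 2 of the mutant without Pi 3 were raised.

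**Figure D3:**
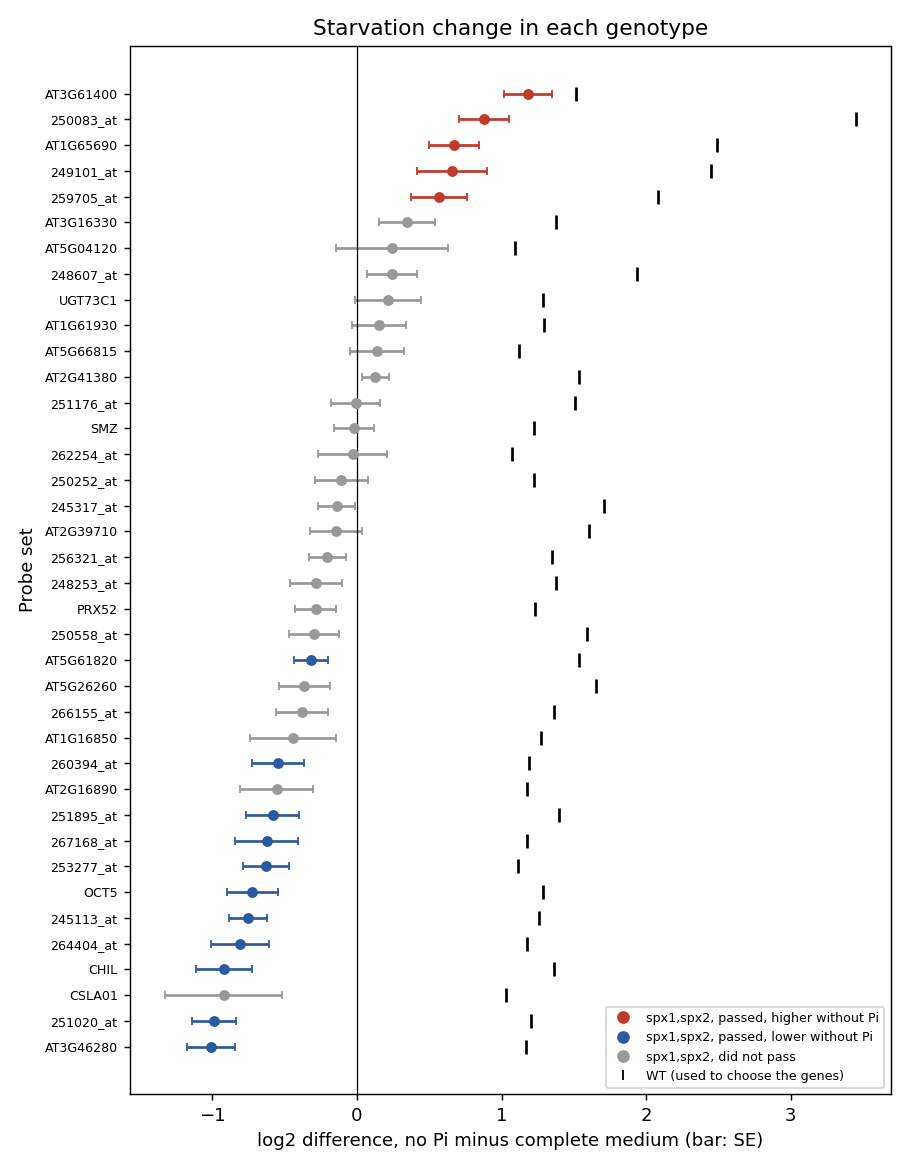
Each row is 1 of the 38 probe sets, with the log2 difference between no Pi and complete medium in spx1,spx2 as a point with its SE and the WT difference as a tick. The WT ticks all lie at 1 or more because they chose the genes, while the mutant points run from -1.01 to 1.18, with 5 passing as higher and 11 as lower.

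Resupply in the mutant raised all 38 members, by 0.52 to 2.46 (median 1.41, limma adjusted p between 1.04e-10 and 0.041), against 23.5% of all probe sets. The rule held the resupplied mutant within 1 of resupplied WT, so the count is partly fixed by the choice and nothing is read from it. The same limit applies to the resupply changes of single members in the mutant given below. Outside 3 arrays with low signals for them, the 4 polyadenylated spike-in controls dap, lys, phe and thr all read lowest in resupplied WT. The dap control read 7.91 to 8.33 in the WT resupplied arrays and 8.61 to 8.69 in the mutant resupplied arrays. It read 5.26 to 5.57 in 3 arrays (replicate 3 of WT with Pi, replicate 2 of the mutant with Pi and replicate 1 of the starved mutant) and 8.82 to 9.38 in the other 9. In resupplied WT lys read 5.87 to 6.09, in the resupplied mutant 6.67 to 7.09 and in those 9 arrays 6.33 to 6.95. Without these 3 low arrays the rule again found 38 probe sets, 34 of them members, with 4 raised and 12 lowered by starvation in the mutant. Whether the lower spike-in signal of the resupplied WT arrays takes part in the WT step was not tested.

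Of tissue markers, 1 of 5 listed for shoot and 2 of 6 for root have a named probe set. The shoot gene RCA, Rubisco activase, had group means between 13.56 and 14.09. From complete medium to no Pi to resupply it read 14.09, 13.63 and 13.65 in WT and 13.96, 13.71 and 13.56 in the mutant. The root hair expansin genes were lowest in WT in complete medium and highest in the resupplied mutant, EXPA7 at 6.78 and 9.49 and EXPA18 at 7.11 and 9.92. Their signal after resupply in WT was 8.25 and 8.79. In WT both expansins moved in the members' direction. On starvation in the mutant their changes were 0.31 ± 0.20 and 0.30 ± 0.22, neither of which passed, while the members' median was -0.24. Resupply in the mutant raised both, by 1.91 and 1.98, against 23.5% of all probe sets, and the members by a median of 1.41. Their part in the results was not tested.

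Among the members with a known place in flavonoid and glycoside metabolism, CHIL encodes a chalcone isomerase-like protein that promotes flavonoid synthesis. Its WT signal, in replicate order here and below, was 8.13, 7.98 and 8.16 in complete medium, 9.40, 9.50 and 9.46 when starved and 10.97, 10.80 and 10.79 when resupplied. In the mutant it was 10.50, 9.94 and 9.32 in complete medium, 9.24, 8.86 and 8.91 when starved and 10.17, 10.41 and 10.45 when resupplied. The mutant mean was highest after resupply, although replicate 1 from complete medium was above all resupplied mutant arrays, and the no-Pi arrays lay below all the others. Starvation lowered CHIL in the mutant by 0.92 ± 0.19 on the log2 scale (limma adjusted p = 0.00068), and the genotype difference without Pi was -0.45 ± 0.19 (adjusted p = 0.31). UGT73C1 encodes a glucosyltransferase able to attach glucose to cytokinins in vitro. It gave 3.77, 3.66 and 4.68 with Pi, 5.32, 5.55 and 5.11 without it and 6.51, 6.35 and 6.33 at 4 h of resupply in WT. The mutant gave 4.89, 4.52 and 3.99 with Pi, 4.53, 4.68 and 4.84 without it and 6.08, 6.23 and 5.90 at 4 h of resupply. Without Pi the mutant lay below WT with no overlap, by a difference of -0.65 ± 0.23 that did not pass (adjusted p = 0.199), and UGT73C1 had the smallest excess of all members in complete medium (0.42). AT2G16890, another UDP-glycosyltransferase family gene, read 5.03, 4.78 and 5.34 in the complete, 6.60, 6.34 and 5.74 in the no-Pi and 8.21, 8.18 and 8.30 in the resupplied group in WT. It read 7.56, 6.60 and 6.19 in the complete, 6.24, 6.17 and 6.27 in the no-Pi and 7.66, 7.71 and 7.94 in the resupplied group in the mutant. Its arrays overlapped between the genotypes without Pi, and its starvation change in the mutant of -0.55 ± 0.25 (adjusted p = 0.086) became -0.85 (adjusted p = 0.00841) without mutant replicate 3 from complete medium and -0.16 (adjusted p = 0.573) without its replicate 1.

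Members linked to the cell wall were PRX52, a class III peroxidase known for a part in lignin formation, and CSLA01, a cellulose synthase-like enzyme of the family that makes mannan backbones. PRX52 read 4.09, 4.16 and 4.30 in complete medium, 5.35, 5.49 and 5.40 when starved and 6.84, 6.99 and 6.91 when resupplied in WT, a tight series. The first of these groups had a mean under 4.397, where RMA compresses differences. The mutant read 5.88, 5.80 and 5.65 in complete medium, 5.55, 5.54 and 5.40 when starved and 6.79, 7.36 and 6.62 when resupplied, so that its complete-medium arrays were all above its no-Pi arrays. That difference, -0.29 ± 0.14, did not pass (adjusted p = 0.113), though it did at the same size without replicate 2 of the resupplied mutant (adjusted p = 0.0276). CSLA01 gave 4.88, 5.13 and 5.62 with Pi, 5.91, 6.38 and 6.43 without it and 8.20, 8.12 and 7.18 at 4 h of resupply in WT and was the member nearest to the lower bound of the starvation step (1.03). Mutant arrays gave 7.86, 7.21 and 5.46 with Pi, 6.03, 5.86 and 5.88 without it and 7.14, 7.54 and 6.93 at 4 h of resupply. Its replicate 3 from complete medium lay far under the other two. The starvation change of -0.92 ± 0.41 (adjusted p = 0.0748) became -1.61 (adjusted p = 0.000148) without that array and -0.41 (adjusted p = 0.429) without replicate 1. The resupply change of 1.28 ± 0.41 lost its call without replicate 2 of the resupplied mutant (adjusted p = 0.0687).

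OCT5 encodes an organic cation and carnitine transporter of the vacuole membrane. In WT it read 4.81, 4.98 and 4.88 in the complete, 6.10, 6.08 and 6.36 in the no-Pi and 7.53, 7.63 and 7.47 in the resupplied group. In the mutant it read 7.06, 6.42 and 6.30 in the complete, 5.56, 6.19 and 5.86 in the no-Pi and 7.99, 8.33 and 8.06 in the resupplied group. The resupplied mutant arrays were all above the resupplied WT arrays, and the no-Pi arrays were the lowest of the mutant. Starvation lowered OCT5 in the mutant by 0.72 ± 0.17 on the log2 scale (limma adjusted p = 0.00217) after a WT step of 1.29. Without Pi the genotypes differed by -0.31 ± 0.17 (adjusted p = 0.447).

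Of regulators and signals, SMZ encodes an AP2-type repressor of flowering that is a target of the microRNA miR172. Its WT signal was 5.64, 5.86 and 5.70 in complete medium, 6.85, 7.02 and 7.00 when starved and 8.56, 8.33 and 8.14 when resupplied. The mutant signal was 7.31, 6.97 and 6.65 in complete medium, 6.91, 7.08 and 6.90 when starved and 7.92, 8.05 and 8.04 when resupplied, with the complete-medium and no-Pi arrays overlapping. The starvation change was -0.02 ± 0.14 (adjusted p = 0.936), and the genotypes without Pi differed by 0.01 ± 0.14. AT3G46280, a protein kinase-related gene, had the largest fall in the mutant on starvation. It read 8.24, 7.40 and 7.49 with Pi, 8.84, 8.97 and 8.82 without it and 9.96, 9.84 and 9.93 at 4 h of resupply in WT. It read 9.66, 9.61 and 9.65 with Pi, 8.39, 8.77 and 8.74 without it and 10.18, 10.41 and 10.10 at 4 h of resupply in the mutant, where the complete-medium arrays spanned only 9.61 to 9.66. Starvation lowered it there by 1.01 ± 0.16 on the log2 scale (limma adjusted p = 5.02e-05), against a WT rise of 1.17. AT5G66815, a gene of the CEP family of small secreted signalling peptides, had WT means of 4.44, 5.56 and 6.68 from complete medium to resupply. Its mutant means were 5.26, 5.40 and 7.12, the complete-medium one 0.83 above WT. AT3G16330, annotated as a rapidly elicited defence protein gene, had means of 6.29, 7.67 and 8.83 in WT and 7.41, 7.76 and 9.24 in the mutant. Its starvation change there of 0.35 ± 0.19 (adjusted p = 0.159) became 0.07 (adjusted p = 0.768) without replicate 3 from complete medium.

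**Figure D4:**
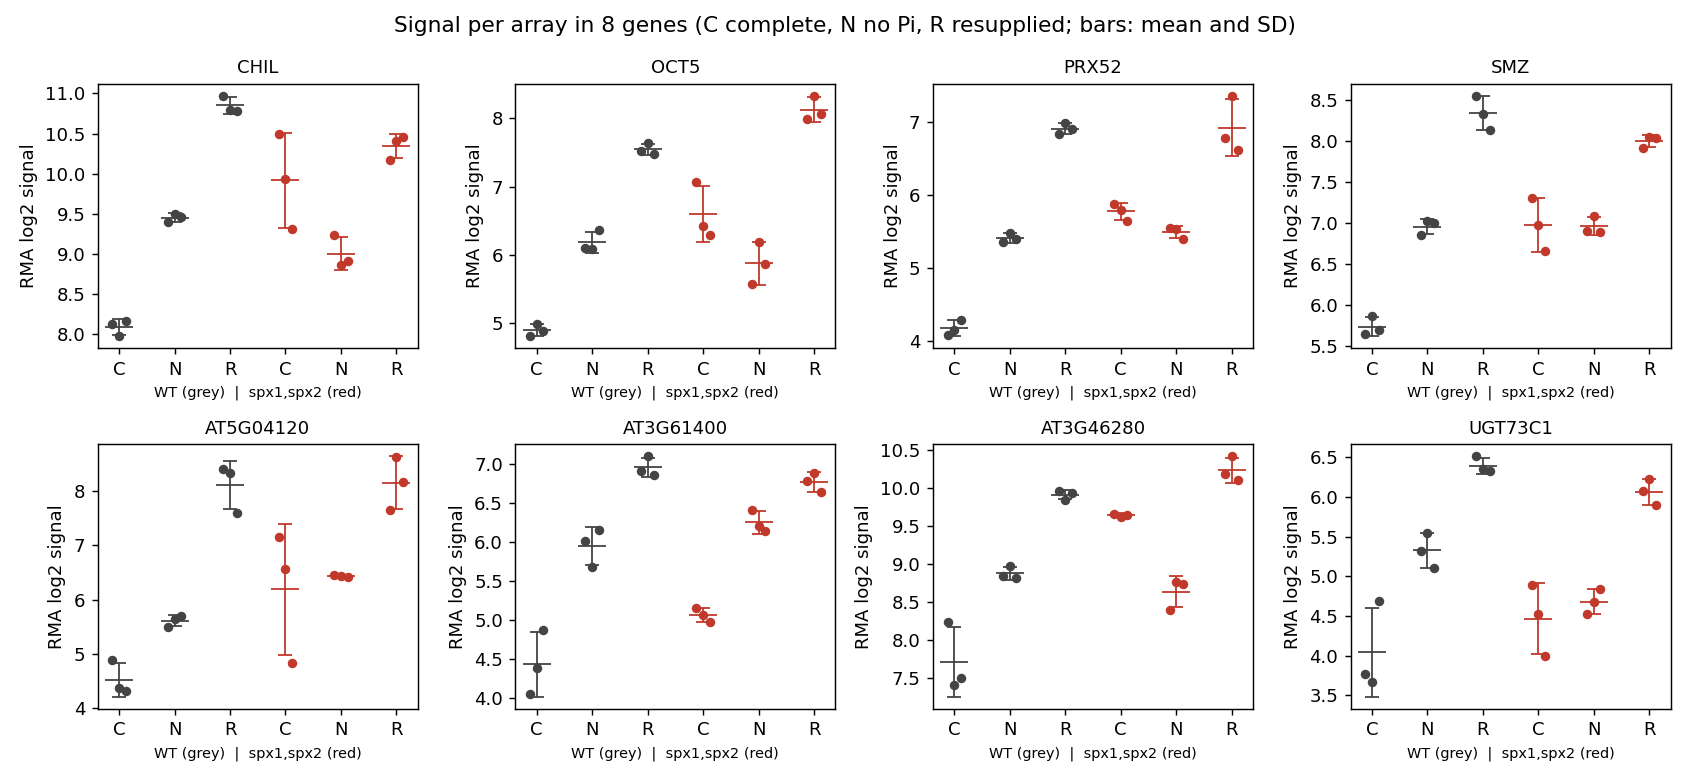
Points are the RMA log2 signals of single arrays in 8 members, WT in grey and spx1,spx2 in red, for complete medium (C), no Pi (N) and resupply (R), with bars for the group mean and SD. CHIL, OCT5, PRX52 and AT3G46280 read lower without Pi than in complete medium in all mutant arrays, and AT3G61400 read higher in all of them.

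The enzymes of other classes included AT5G04120, of the phosphoglycerate mutase family, which had the largest resupply step in WT (2.50). Its WT arrays gave 4.88, 4.37 and 4.32 in the complete, 5.50, 5.64 and 5.70 in the no-Pi and 8.41, 8.33 and 7.60 in the resupplied group. Its mutant arrays gave 7.16, 6.57 and 4.83 in the complete, 6.46, 6.43 and 6.41 in the no-Pi and 7.65, 8.63 and 8.17 in the resupplied group. The no-Pi arrays of the mutant lay above those of WT without overlap, at 0.82 ± 0.39, which did not pass in the fit to all groups (adjusted p = 0.359) and did in a fit to those 2 groups alone (adjusted p = 0.00588). In complete medium the mutant spanned 4.83 to 7.16, and the starvation change of 0.24 ± 0.39 (adjusted p = 0.661) became -0.43 (adjusted p = 0.203) without replicate 3 and 0.73 (adjusted p = 0.122) without replicate 1. AT3G61400, of the 2-oxoglutarate-dependent oxygenase family, passed as raised by starvation in the mutant too. WT gave 4.05, 4.38 and 4.87 in complete medium, 6.02, 5.68 and 6.15 when starved and 6.91, 7.10 and 6.86 when resupplied. The mutant gave 5.16, 5.07 and 4.98 in complete medium, 6.41, 6.20 and 6.13 when starved and 6.78, 6.89 and 6.63 when resupplied. Starvation raised it there by 1.18 ± 0.16 (limma adjusted p = 8.29e-06), the largest rise of the members in the mutant. The mutant in complete medium was 0.63 above WT, the second smallest excess. Its resupply rise in the mutant, 0.52 ± 0.16 (adjusted p = 0.0152), lost its call without starved replicate 3 or resupplied replicate 2 (adjusted p = 0.0603 and 0.0642). The resupply step in WT, 1.01, was the nearest to the bound.

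AT2G39710, of the aspartyl protease family, gave 5.28, 5.63 and 5.69 with Pi, 7.11, 7.06 and 7.24 without it and 8.91, 8.88 and 8.85 at 4 h of resupply in WT. Mutant values were 7.70, 7.46 and 7.35 with Pi, 6.94, 7.84 and 7.32 without it and 8.98, 9.52 and 9.19 at 4 h of resupply. The genotypes overlapped without Pi, and starvation changed the mutant by -0.14 ± 0.18 (adjusted p = 0.569). With 1.97 it was the member nearest to the bound of 2 in complete medium. AT2G41380, of the S-adenosylmethionine-dependent methyltransferase superfamily, had the smallest SE of the members. Its WT mean in complete medium lay under 4.397, where RMA compresses differences. Its arrays read 4.05, 4.23 and 3.96 in the complete, 5.54, 5.60 and 5.70 in the no-Pi and 6.99, 7.01 and 6.97 in the resupplied group in WT. The mutant read 5.44, 5.41 and 5.51 in the complete, 5.63, 5.65 and 5.46 in the no-Pi and 7.22, 7.36 and 7.25 in the resupplied group. Starvation changed the mutant by 0.13 ± 0.09 (adjusted p = 0.297), and its resupply step there was 1.70 ± 0.09.

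The remaining named members have no role given here beyond a family. AT1G65690, of the family of late embryogenesis abundant hydroxyproline-rich glycoproteins, read 4.43, 5.12 and 5.05 in complete medium, 7.29, 7.30 and 7.47 when starved and 8.54, 8.32 and 8.28 when resupplied in WT. It read 6.84, 6.39 and 6.07 in complete medium, 7.19, 6.96 and 7.17 when starved and 8.41, 8.46 and 8.40 when resupplied in the mutant. Starvation raised it in both genotypes, by 2.49 in WT by the choice of members and by 0.67 ± 0.17 in the mutant (limma adjusted p = 0.00369). AT5G26260, a TRAF-like family gene, read 7.72, 7.44 and 7.17 with Pi, 8.94, 9.13 and 9.23 without it and 10.25, 10.32 and 10.03 at 4 h of resupply in WT. It read 9.74, 8.97 and 9.03 with Pi, 8.91, 8.78 and 8.96 without it and 9.69, 9.91 and 9.57 at 4 h of resupply in the mutant. The starvation change in the mutant of -0.36 ± 0.17 did not pass (adjusted p = 0.105), and without replicate 2 from complete medium it was -0.50 and passed (adjusted p = 0.0375). Without replicate 1 it was -0.12 (adjusted p = 0.597).

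AT5G61820 read 8.40, 8.40 and 8.46 in the complete, 9.87, 10.06 and 9.92 in the no-Pi and 11.07, 10.95 and 10.90 in the resupplied group in WT. The mutant read 10.50, 10.23 and 9.98 in the complete, 9.78, 9.96 and 10.02 in the no-Pi and 11.20, 11.27 and 11.02 in the resupplied group. Its fall there on starvation, -0.32 ± 0.12 (limma adjusted p = 0.0389), was the smallest that passed. The call was lost without mutant replicate 1 or 2 of either medium (adjusted p between 0.0614 and 0.235), and with arrays centred, with array weights or in a fit to the 2 groups alone (adjusted p = 0.139, 0.0759 and 0.134). It was also lost without the 3 arrays with low spike-in signals (adjusted p = 0.187). AT1G61930 read 5.90, 5.77 and 5.71 in complete medium, 7.09, 7.29 and 6.89 when starved and 8.36, 8.38 and 8.31 when resupplied in WT. It read 7.11, 6.57 and 6.20 in complete medium, 7.20, 6.60 and 6.53 when starved and 8.46, 8.58 and 8.65 when resupplied in the mutant, where starvation changed it by 0.15 ± 0.19 (adjusted p = 0.555). AT1G16850 had WT means of 6.10, 7.38 and 8.57 and mutant means of 7.92, 7.48 and 8.27. In complete medium its mutant arrays ran from 6.83 to 8.81. Its starvation change of -0.44 ± 0.30 (adjusted p = 0.254) became -0.99 (adjusted p = 0.000198) without replicate 3, and 0.003 (adjusted p = 0.995) without replicate 1. Its resupply rise in the mutant, 0.78 ± 0.30 (limma adjusted p = 0.041), lost its call without any 1 of the resupplied mutant arrays or starved replicate 2 or 3 (adjusted p between 0.0602 and 0.121). With arrays centred that call was lost too (adjusted p = 0.0632).

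Of the 19 unnamed members, starvation in the mutant raised 3 and lowered 7, next to 2 raised and 4 lowered among the 19 named ones. Over all probe sets 17.7% were raised and 26.3% lowered, and nothing is read from the split by name. The raised unnamed ones were 250083_at (0.88 ± 0.17), 249101_at (0.66 ± 0.24) and 259705_at (0.57 ± 0.19), with limma adjusted p between 0.000384 and 0.032. The call of 249101_at was lost without replicate 2 or 3 of the mutant in complete medium or without Pi (adjusted p between 0.0519 and 0.123). That of 259705_at was lost without replicate 3 from complete medium, where the change was 0.28, or starved replicate 1 or 2 (adjusted p between 0.0605 and 0.168). These 3 and AT1G65690 were also the 4 members with the largest starvation steps in WT, between 2.08 and 3.45. That match was seen after the values were known, and the rule fixed the WT side. The lowest change among the unnamed ones was that of 251020_at, -0.99 ± 0.15.

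Just inside the starvation bound lay CSLA01 (1.03), 262254_at (1.07) and AT5G04120 (1.09), and just outside AT3G52740 (0.96), AT3G22570 (0.92) and AT5G06570 (0.90). Just inside the resupply bound lay AT3G61400, 248607_at and 253277_at (each 1.01), and outside AT4G29700 (0.99), AT2G42360 (0.95) and AT4G02360 (0.94). For the mutant in complete medium AT2G39710 (1.97), AT3G46280 (1.93) and 264404_at (1.92) lay inside, and AT3G57010 (2.01), GSTU22 (2.13) and AT4G11210 (2.17) outside. For the resupplied genotypes 267168_at (0.91), 250558_at (0.70) and CSLA01 (0.63) lay inside in absolute value, and AT5G41280 (1.06) and XTH20 (1.36) outside. Of the genes set aside, AT4G14090 (-1.14, mutant minus WT) and DFR (-1.24) also lay outside this bound alone.

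Of 17 lists of genes for pathways of this tissue and treatment, with 202 genes, 32 genes in 12 lists have a named probe set, and CHIL is the single member among them. In the 2 flavonoid and anthocyanin lists 6 of 16 genes were measured. Starvation in the mutant raised 1 of these 6, DFR (0.60), and lowered 3, UGT78D2 (-1.12), CHIL and AT5MAT (-0.75). Over all probe sets 17.7% were raised and 26.3% lowered. The resupply step in the mutant passed as a rise for all 6, against 23.5% of all probe sets. For CHIL that rise is partly fixed by the choice of members. Outside those lists 5 genes also made both steps in WT and were left out for their excess in the mutant in complete medium. They were the jasmonate-related oxygenase genes JRG21 (3.92) and AT2G38240 (4.49), the cold-regulated genes COR15A (5.10) and LTI30 (3.43), and the glutathione transferase gene GSTU25 (3.70). Of the Pi starvation list the 2 measured genes, AT5G20790 and the purple acid phosphatase gene PAP20, rose on starvation in the mutant and did not rise at resupply in WT (-4.15 and -0.28). The 6 measured rapid stress regulators, such as CML37 and STZ, all rose on starvation in the mutant, by 0.92 to 5.44. Over all probe sets 17.7% rose there, and the list was chosen with earlier results of these data known. None of the 6 had a resupply step of 1 in WT.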

How the data were processed

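RNA from whole seedlings was labelled with biotin and hybridised to 18 Affymetrix arrays, 3 in each of 6 groups that the labels call biological replicates. Nothing in the labels says that replicates came from separate cultures, so p-values measure the spread between these samples. The deposited values are log2 signals summarised by RMA, per the submitters' processing notes. The log base was read from their range. Software and version: not given in the sources used here. RMA makes array distributions alike, so a change of total RNA is not measured. The number of arrays limits the precision.

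The 64 control probe sets were left out. Names came from the platform's probe table, matched to RefSeq (TAIR10.1) by gene identifier: 13513 probe sets have 1 gene, 503 several and 8730 none here. All 18 arrays were fitted with 1 mean per group in limma 3.58.1 on R 4.3.3, with Benjamini-Hochberg adjustment over 22746 probe sets at 0.05. The fit had 12 residual and 6.4 prior degrees of freedom. It was tested on simulated data. Arrays of a group are given by replicate number.

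The members, gene lists and tests were chosen with earlier results of these data known. Every member with 1 named gene was named. Values in every array were given for the 12 named members with the largest WT rise from complete medium to resupply, the 6 with the largest genotype difference without Pi and those on a gene list. AT3G46280 and AT3G61400 were added after their values were seen, as were the unnamed probe sets singled out. The main fit did not pair samples by replicate number, and whether the numbers pair them is not known. Sequences and promoter motifs were not analysed here. The alternatives tried were centring each array, array weights, a replicate block, a filter on dim probe sets, a fit to 2 groups, other thresholds and leaving out arrays.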

Additional observations from a re-analysis of the deposited data

Results flagged for a closer look

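In 5 named members every WT array without Pi lay above every WT array from complete medium, while every mutant array without Pi lay below every mutant array from complete medium. The WT direction was fixed by the choice of members, and the difference between the genotypes was not tested. The changes in the mutant, with the WT changes beside them, were as follows. AT3G46280 changed by -1.01 in the mutant and 1.17 in WT. CHIL changed by -0.92 in the mutant and 1.37 in WT. OCT5 changed by -0.72 in the mutant and 1.29 in WT. For AT5G26260 the changes were -0.36 and 1.65, and for PRX52 -0.29 and 1.23, and in these 2 the mutant change did not pass limma's test. Another 7 unnamed members had the same pattern, with mutant changes between -0.99 and -0.20. Such a gap downwards between the mutant groups occurred in 28.6% of all probe sets and in 31.6% of the members.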

How the results depend on the processing

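The rule gave 16 probe sets with both WT thresholds at 1.2 and 78 at 0.8, and 28 to 45 with 1 array left out. Centring each array gave 33 probe sets, 32 of them members. In all 18 of these leave-outs 14 of the 38 members were kept, 7 of them named. With 1 array left out, starvation in the mutant raised 3 to 6 members and lowered 7 to 14, resupply in the mutant raised 34 to 38 and lowered 0, and without Pi 0 to 1 were lower and 0 higher in the mutant. The genotype count without Pi became 5 lower with array weights and 1 higher, AT5G04120, in a fit to the 2 groups alone. The replicate block kept 5 raised and 11 lowered by starvation in the mutant, 38 raised by resupply and 1 lower without Pi. Same-numbered arrays did not deviate together in any of the 3 comparisons, with correlations from -0.292 to 0.183. With 3 arrays per group these values cannot settle whether the numbers pair the samples. Over all probe sets the genotype difference without Pi passed as lower for 112 and as higher for 77, and for 391 and 276 with array weights. For single named genes 17 of the recomputed values lost their call, 11 gained one and none that was called changed sign. The causes were not tested.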

Other observations

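The named members lie on all 5 nuclear chromosomes, 4 each on 1, 2 and 3, 1 on chromosome 4 and 6 on chromosome 5. By RefSeq gene order the closest pair is CHIL and PRX52, with 7 protein-coding genes between them, and the next closest, AT5G04120 and CHIL, has 120. CHIL and PRX52 were both lower without Pi than in complete medium in all mutant arrays, as were 31.6% of the members and 28.6% of all probe sets. The change of PRX52 did not pass limma's test.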
